A study of Mus musculus with 4 samples.

Results

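The 5 genes described here are those of the mouse protamines (Prm1, Prm2 and Prm3) and transition proteins (Tnp1 and Tnp2). They were chosen by name, as a gene family, and all 5 were among the 18419 genes of the table. Droplet single-cell RNA sequencing was run on testes of outbred ICR mice, and transcripts were counted by their unique molecular identifiers (UMIs). Of the 4 groups, A0 was the vehicle control and A10 was given AOS, alginate oligosaccharides, at 10 mg/kg body weight. B0 had received busulfan without AOS, and BA10 both agents, with the same AOS dose as A10. Busulfan, an alkylating agent that can destroy germ cells of the testis, was injected once into juvenile males, and AOS or vehicle followed. The text of the study gives different dosing durations in different places, so no duration is given here. Each group was 1 library of cells from several mice that were combined before capture, and sperm were washed out of the tissue before digestion. No error between animals can be had, so no test was made, and all intervals below are exact 95% intervals that cover counting error only.

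During spermatogenesis, spermatogonia give rise to spermatocytes, which pass through meiosis and become haploid spermatids. In elongating spermatids most histones are removed from the chromatin. Transition proteins, small basic proteins, take their place first, and protamines, which are still more basic, then pack the DNA of the sperm head. The mRNAs of these proteins are made in round spermatids and stored, and translation follows later. Prm1 and Prm2 encode the protamines of the mature sperm nucleus. Prm3 is a gene of the same cluster whose product is acidic and is found in the cytoplasm of spermatids. Tnp1 and Tnp2 encode the main transition proteins.

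Prm1, Prm2, Prm3 and Tnp2 lie side by side on the minus strand of chromosome 16, and Tnp1 lies on the minus strand of chromosome 1. In GENCODE M21, on the mm10 build that the files use, Tnp2 spans chr16:10787936-10788660, Prm3 chr16:10790505-10790914, Prm2 chr16:10791380-10796134, Prm1 chr16:10796326-10805839 and Tnp1 chr1:73015074-73015909. The annotated spans of Prm1 and Prm2 include transcripts that start upstream of the RefSeq starts. The sequences below are the 120 bases before each RefSeq start (GRCm38.p6, the same build), read 5′ to 3′ on the strand of the gene. They are shown because the 5 genes are used in the same cells and the window holds their core promoters. Their positions are chr16:10796824-10796943 for Prm1, chr16:10792106-10792225 for Prm2, chr16:10790915-10791034 for Prm3, chr1:73015900-73016019 for Tnp1 and chr16:10788656-10788775 for Tnp2. Capitals mark letters like the cAMP response element TGACGTCA, bound by CREM, with at most 1 base changed, and the letters TATAA on either strand.
Prm1: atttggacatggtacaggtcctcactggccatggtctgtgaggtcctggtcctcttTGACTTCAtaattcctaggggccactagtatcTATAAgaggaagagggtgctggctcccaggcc
Prm2: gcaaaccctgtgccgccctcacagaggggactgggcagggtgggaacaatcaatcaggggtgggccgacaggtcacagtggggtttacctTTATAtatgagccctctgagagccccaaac
Prm3: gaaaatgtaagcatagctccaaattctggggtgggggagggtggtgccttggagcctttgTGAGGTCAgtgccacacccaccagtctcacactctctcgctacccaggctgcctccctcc
Tnp1: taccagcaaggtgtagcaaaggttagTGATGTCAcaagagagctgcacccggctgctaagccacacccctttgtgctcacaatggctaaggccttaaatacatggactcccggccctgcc
Tnp2: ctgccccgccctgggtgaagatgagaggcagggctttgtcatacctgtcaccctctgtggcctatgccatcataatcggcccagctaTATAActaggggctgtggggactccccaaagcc

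The exact element TGACGTCA was in none of the 5 windows of 250 bases before the start, and in 1.55% of the windows of all 32851 RefSeq promoters. With at most 1 base changed it was in 3 of the 5 (Prm1, Prm3 and Tnp1) and in 10.6% of all promoters. The match began 64 bases before the start in Prm1 (TGACTTCA), 60 in Prm3 (TGAGGTCA) and 94 in Tnp1 (TGATGTCA). TATAA was in the windows of Prm1, Prm2 and Tnp2, 32, 30 and 33 bases before the start, and in 22.8% of all promoters. In Prm2 these letters were on the opposite strand. The matches did not overlap each other. A match of letters is a description and does not show that a factor binds there.

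The libraries held 8941 (A0), 9682 (A10), 4659 (B0) and 3778 (BA10) cells, with 25323535 to 150812974 UMIs per library. Median UMIs per cell were 12685, 10948, 4214 and 17989, and the lowest UMI total of a cell was 7687, 6716, 2985 and 9013, so the depth at which cells were kept differed between libraries. Cells were clustered and named without the 5 genes. Spermatid-like cells made up 59.5%, 60.7%, 2.47% and 5.27% of the libraries in this order. Somatic-like cells made up 0.190%, 0.124%, 70.5% and 4.69%, and 2934 of the 3285 in B0 were Leydig-like. Cluster 15, 716 BA10 cells named spermatocyte-like, shared leading genes with cluster 3, named spermatid-like, with 790 cells of A0. Cells that are alike may thus be in different classes in A0 and BA10, which was not tested. In bulk sums such as those below, fewer cells of a type and less RNA per cell cannot be told apart. The 12 spermatid markers summed to 10403, 9325, 605 and 1117 CPM (UMIs per 1000000 of the library), and none of them was at 0 in any library. The 6 Leydig markers summed to 7.66, 10.1, 14418 and 397 CPM. In all, 374 barcodes occurred in more than 1 library, on 751 cells. Leaving those cells out moved the median log2 ratio of the 5 genes from 0.31 to 0.30 (A10 over A0), from -8.42 to -8.38 (B0 over A0) and from -5.09 to -5.05 (BA10 over A0), and it was 3.15 (BA10 over B0) either way.

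In the control library, protamine transcripts were the most abundant of all listed genes. Mitochondrial genes are not listed, so ranks and shares are among the other genes. Prm2 ranked first of all genes with 15503 CPM (interval 15483 to 15522), and Prm1 ranked second with 12309 CPM (12291 to 12327). Tnp2 followed at rank 6 with 7507 CPM (7493 to 7521) and Tnp1 at rank 8 with 4712 CPM (4701 to 4723). Prm3 stood far lower, at rank 127 with 990.3 CPM (985 to 995). The intervals of no neighbouring pair in this order overlapped. UMIs were counted at the 3′ end of transcripts, so the levels were not divided by gene length. The 5 genes together took 4.10% of the UMIs of A0 and 4.77% of those of A10, against 0.0260% in B0 and 0.115% in BA10.

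Along the order of germ cell development, Prm3 left its base level first. The 18594 cells of A0 and A10 not named somatic-like were ordered by diffusion pseudotime, made without the 5 genes. They were cut into 10 bins of equal size over both libraries. They included 784 unnamed cells of A0 and 772 of A10, of which 11 in each were in cluster 31, led by connective tissue genes. Spermatid-like cells were 0.217% of the first bin of A0 and 99.2% of the last, but 71.1% of bin 4 and 24.7% of bin 5. Spermatocyte-like cells were 24.0% of bin 4 and 23.3% of bin 5. The rest of bin 5, its largest part, was unnamed cells. In A0, Prm3 had covered 10% of its rise in bin 5, with 508 CPM against a lowest bin of 140.2 CPM. Prm2 reached that point in bin 6, and Prm1, Tnp1 and Tnp2 in bin 7. The same bins were found in A10. When cells were ordered along the first principal component instead, Prm3 was again in bin 5, Prm2 in bin 6 and Prm1 and Tnp2 in bin 7, while Tnp1 moved to bin 6, in both libraries. In A0 the highest level of each gene was in bin 10, with 47885 CPM of Prm1, 54207 of Prm2, 2485 of Prm3, 18388 of Tnp1 and 33329 of Tnp2. As a ratio of the highest to the lowest bin, Prm3 spanned the smallest range of the 5 genes.

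**Figure D1:**
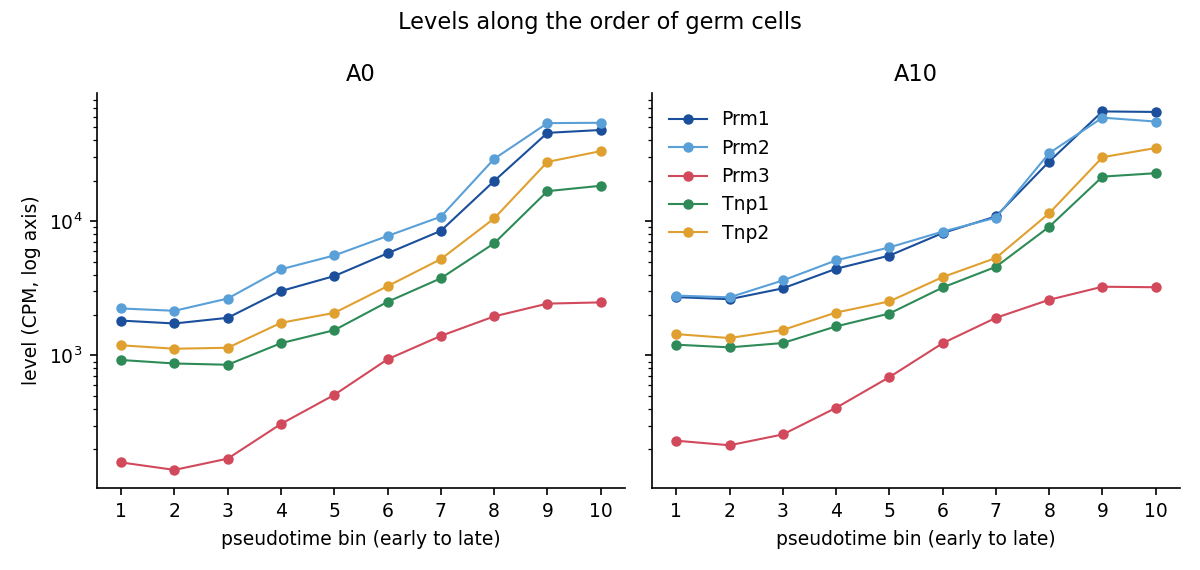
Levels of the 5 genes (CPM, log axis) in 10 pseudotime bins of germ cells and unnamed cells from early to late, for A0 (left) and A10 (right). Points are UMIs summed over the cells of a bin. In both libraries the curves stay near a base level up to bin 3, Prm3 climbs next, and the other 4 genes climb most steeply from bin 7 to bin 9.

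A pair of spermatid-like clusters differed most in Prm2 and the transition proteins. In A0, cluster 5 (554 cells, led by Defb33, Tex37 and Tfam) held 61416 CPM of Prm1, 68208 of Prm2, 24409 of Tnp1 and 39774 of Tnp2. Cluster 17 (336 cells, led by 1700080E11Rik and Car2) held 59550 CPM of Prm1, 97975 of Prm2, 12843 of Tnp1 and 15360 of Tnp2. Prm1 was thus close to level between them. The transition proteins were also lower in cluster 17 in A10, with 29039 CPM of Tnp1 and 40676 of Tnp2 in cluster 5 against 16628 and 17501 in cluster 17. Clusters were made without the 5 genes, but their cells share 1 library each, so they are not replicates, and which of the pair is later was not tested.

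Over the 20 A0 clusters of at least 50 cells, Prm1 and Prm2 were among the 3 genes most like each other, and Tnp2 led for Tnp1. The measure was Pearson's r of log2 (CPM + 10), given as a description, among 5405 other genes of at least 50 CPM in a cluster. The genes most like Prm1 were Paqr5 (r = 0.998), Prm2 (0.997) and Ttc24 (0.997). For Prm2 they were Ttc24 (0.999), Bpifa3 (0.998) and Prm1 (0.997). Tnp1 was most like Tnp2 (0.994), Tex37 (0.992) and Defb33 (0.989), and Tnp2 was most like Cstl1 (0.995), Tex37 (0.994) and Tfam (0.994), the mitochondrial transcription factor A. Prm3 stood apart: Morn3 (0.997), Pkib (0.995), an inhibitor of protein kinase A, and Iqcf3 (0.995) came first. Its r with the other 4 genes was 0.875 to 0.924. Over the 21 A10 clusters these 15 values of r lay between 0.985 and 0.998.

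All cells of A0 held UMIs of Prm1 and Prm2, whatever their class. The lowest number in any cell of A0 was 5 UMIs for Prm1 and 5 for Prm2, and in A10 it was 7 for each. Spermatocyte-like cells of A0 (2824 cells) held a median of 22 Prm1 UMIs and 26 Prm2 UMIs, or 1424 and 1777 CPM. The 17 somatic-like cells of A0, which should lack both transcripts, held a median of 26 Prm1 and 35 Prm2 UMIs at a median of 9669 UMIs per cell, against 11690.5 in spermatocyte-like cells. The medians in spermatocyte-like cells were therefore not above those in these 17 cells, which ranged from 6 to 375 Prm1 UMIs. That is a small set, and whether the UMIs in spermatocyte-like cells are background was not tested. In A0, the 706 spermatocyte-like cells with fewest UMIs had a median of 17 Prm1 UMIs (1950.3 CPM), and the 706 with most had 37 (1135 CPM). The make-up of the 5 genes was close to that in spermatid-like cells. Prm1 was 28.7% of their UMIs in spermatocyte-like and 30.1% in spermatid-like cells, Prm2 35.8% and 37.9%, Prm3 2.55% and 2.36%, Tnp1 14.5% and 11.3%, and Tnp2 18.5% and 18.3%.

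The comparison of A10 with A0 asks how AOS alone moved these transcripts. Prm1 differed most, with 16635 CPM in A10 (interval 16614 to 16656) against 12309 in A0, a log2 ratio of 0.43 (0.43 to 0.44) or 1.35-fold. Prm3 was at 1245 CPM against 990.3 (log2 ratio 0.33), and Tnp1 at 5833 against 4712 (0.31). Tnp2 was at 7997 CPM against 7507 (0.09), and Prm2 at 16022 against 15503 (0.05). All 5 were thus higher in A10, by more than counting error, and none by 2-fold or more. Among cells of at least 9013 UMIs the direction turned for Prm2, at 14219 CPM in A10 against 14379 in A0 (log2 ratio -0.02), and Tnp2 was at 0.03. Of all 17741 genes with a UMI, 0.0338% were at least 2-fold higher in A10 and 0.0676% at least 2-fold lower. The median log2 ratio was 0.31 for the 5 genes and -0.02 for all genes. Among 2126 genes of at least 100 CPM in either library, a level chosen after the values were seen, 20 had a ratio as high as that of Prm1, itself included, and 512 one as high as that of Prm2.

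Among the listed genes, Prm1 became the leading transcript of A10, ahead of Prm2. The number of Prm1 UMIs per Prm2 UMI was 0.794 (0.792 to 0.796) in A0 and 1.04 (1.036 to 1.04) in A10. This ratio was higher in A10 in 20 of the 20 clusters with at least 50 cells of both libraries, by 1.18 to 1.41 times. The clusters of a library share its free RNA and its preparation, so these 20 values are not independent. Each of the 5 genes was higher in A10 in 18 of those clusters. In spermatid-like cells the log2 ratio of A10 over A0 was 0.47 for Prm1 and 0.08 for Prm2. In spermatocyte-like cells it was 0.56 for Prm1 and 0.29 for Prm2, so the difference was not particular to spermatid-like cells. Among spermatid-like cells of at least 9013 UMIs, the lowest total of a BA10 cell, it was 0.40 for Prm1 and 0.00 for Prm2. With 1 library per group, AOS, the mice and the library preparation cannot be told apart.

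In the busulfan library the 5 transcripts were lower to very unequal degrees. Prm2 was at 21.7 CPM in B0 (interval 19.9 to 23.6) against 15503 in A0, a log2 ratio of -9.41 (-9.60 to -9.36) or 682-fold lower. Folds, like log2 ratios, have 1 CPM added to both levels. Tnp2 was at 19.3 CPM (369.7-fold lower), Prm1 at 35.0 CPM (342-fold lower) and Tnp1 at 60.4 CPM (76.7-fold lower). Prm3 was 7.98-fold lower, at 123 CPM (119 to 128) against 990.3. These sizes depended on the cells counted. Among cells of at least 9013 UMIs Prm3 was at 388 against 959 CPM, a log2 ratio of -1.30 in place of -3.00, and Tnp1 was at -4.61 in place of -6.26. This limit also changes which cell types of B0 are counted. Median UMIs there were 4035 in somatic-like and 11069 in spermatid-like cells. As a mean over cells the log2 ratios were -4.19 for Prm3 and -7.40 for Tnp1. In each of these settings the log2 ratio of Prm3 was the nearest to 0 of the 5 genes. The order of the 5 genes differed from that in A0, with Prm3, the lowest there, now the highest. All 5 were past 2-fold lower, as were 15.3% of 18168 genes, while 36.8% were at least 2-fold higher. The median log2 ratio was -8.42 for the 5 genes and 0.35 for all genes.

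**Figure D2:**
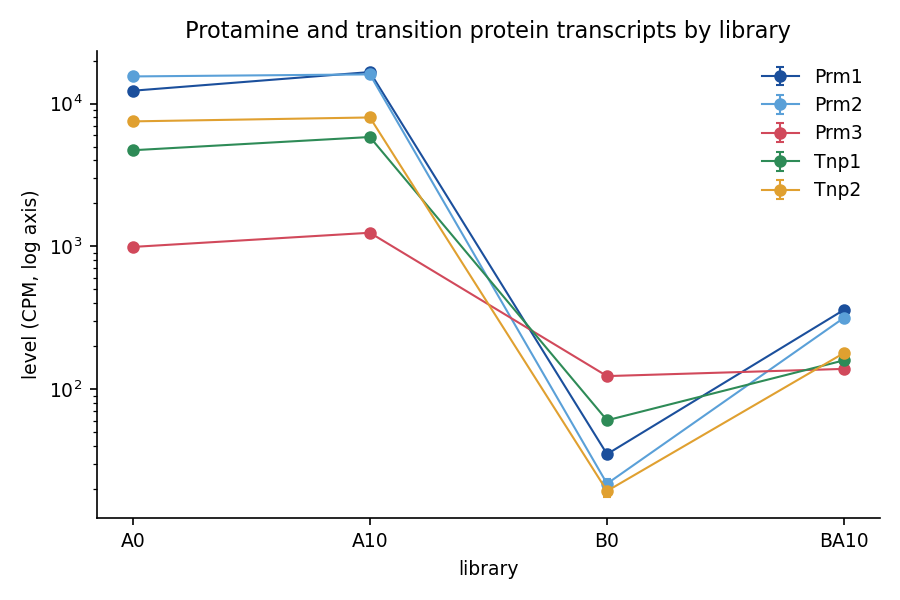
Level of each gene (CPM, log axis) in the 4 libraries, with bars for exact Poisson intervals, mostly smaller than the points; lines only join the points of a gene. A0 and A10 lie close together, B0 is lowest, and Prm3 runs from 990.3 CPM in A0 to 123 CPM in B0 while Prm2 runs from 15503 to 21.7 CPM.

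Within spermatid-like cells the split between the genes was wider. The 115 cells depend on the clustering, since with 1000 variable genes in place of 2000 fewer than 50 cells of B0 were spermatid-like. Prm3 was at 1575 CPM in the 115 spermatid-like cells of B0 (1513 to 1639) and at 1520.3 CPM in the 5316 of A0, a log2 ratio of 0.05 whose interval (-0.01 to 0.11) included 0. At the other clustering resolutions it was -0.14 and -0.08. Tnp1 was at 769.6 CPM against 7315 (log2 ratio -3.25). Prm1 was at 271 CPM against 19391 (-6.15), Tnp2 at 190.5 against 11825 (-5.95) and Prm2 at 161 against 24471 (-7.24). In B0, 1 of the 115 cells held 244 of 423 Prm1, 125 of 251 Prm2 and 113 of 297 Tnp2 UMIs, and the median cell held 0 Prm1 UMIs. Without that cell Prm1 was at 116 CPM, Prm2 at 81.6 and Tnp2 at 119. Nearly all of these B0 cells (113 of 115) were in cluster 26, which held 5 cells of A0. Cluster 3 held the most A0 cells (790), so the class consists mostly of different clusters in the 2 libraries. The leading genes of cluster 26 were Hbb-bs and Hba-a1, globin genes of red cells, beside 4930596D02Rik and Dscc1, which also led cluster 4 of A0. Hba-a1 was at 423 CPM in the spermatid-like cells of B0, with a UMI in 62.6% of them, and at 15.3 CPM in those of A0. Hbb-bs had a UMI in only 0.870% of the B0 cells. In cluster 4 of A0, Prm3 was at 1139.7 CPM, Prm1 at 2528, Prm2 at 3303, Tnp1 at 1773 and Tnp2 at 1752 CPM. In the B0 cells of cluster 26 they were at 1528, 68.1, 46.5, 671 and 93.6 CPM. The levels of Prm1, Prm2 and Tnp2 in cluster 4 were far below the means of the A0 class and nearer to those of A0 spermatocyte-like cells, so the class ratios above compare different clusters. The B0 cells differed in spermatid markers as well. Acrv1, an acrosomal protein gene, was at 248 CPM in B0 and 212 in A0. Spaca1 (605 against 521 CPM), Spaca3 (655 against 545) and Odf1 (199 against 158) were also higher in B0. The other markers of the 12 were lower in B0, from Tssk1 (688 against 898 CPM) to Tssk6 (10.3 against 749.6). Between these lay Smcp, at 1540 against 5440 CPM, and Spem1, at 12.2 against 424. Insl3, the Leydig hormone gene, was at 177 CPM in the spermatid-like cells of B0 against 0.661 CPM in those of A0, and the part of Leydig and red cell RNA in these values was not tested.

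The few UMIs of Prm1 in B0 came from very few cells. Of 886 Prm1 UMIs in the library, 363 were in 1 cell and 244 in another. The first was a macrophage-like cell of 5489 UMIs with 33 UMIs of Cd74 and 8 of Lyz2, macrophage genes, and with 202 Prm2, 114 Tnp1 and 129 Tnp2 UMIs, and 11 UMIs of Smcp, a spermatid gene. It was not called a doublet by Scrublet, which called only 4 cells of B0 and may not have worked there. Without that cell the median log2 ratio of B0 over A0 was -8.95. The second was a spermatid-like cell of cluster 9. The 1% of cells with most UMIs held 92.2% of Prm1, 84.4% of Prm2 and 85.7% of Tnp2, but 64.8% of Tnp1 and 52.6% of Prm3. In A0 that share was 5.87% to 8.01%. Only 1 cell of B0 reached the summed level of the 5 genes in the median spermatid-like cell of A0, or 0.0215% (interval 0.000543% to 0.120%), against 31.1% of the cells of A0 and 33.1% of those of A10. That cell was the macrophage-like one.

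The comparison of BA10 with B0 sets busulfan plus AOS against busulfan alone. Here too AOS, the mice and the library preparation cannot be told apart. Prm2 was at 316 CPM in BA10 (313 to 320.1) against 21.7 in B0, a log2 ratio of 3.804 or 13.97-fold. Prm1 was at 359.7 CPM against 35.0 (10.0-fold) and Tnp2 at 179 against 19.3 (8.87-fold). Tnp1 was at 159 CPM against 60.4 (2.61-fold). Prm3 was at 138 CPM against 123, a log2 ratio of 0.17 (0.11 to 0.22). Of the 5 genes, 4 were thus at least 2-fold higher in BA10, as were 11.6% of 17631 genes, while 34.7% were at least 2-fold lower. The median log2 ratio was 3.15 for the 5 genes and -0.35 for all genes. BA10 remained far below A0, with log2 ratios of -5.09 for Prm1, -5.61 for Prm2, -2.83 for Prm3, -4.88 for Tnp1 and -5.38 for Tnp2. All 5 were at least 2-fold lower there, as were 12.0% of 17939 genes, while 10.9% were at least 2-fold higher. The comparisons of BA10 with B0 and of B0 with A0 share the B0 library.

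These ratios depended on which cells were counted. B0 held mostly shallow cells, and only 448 of its 4659 cells (9.62%) reached 9013 UMIs, the lowest total of any BA10 cell. In B0 the median was 4035 UMIs in somatic-like, 8779 in spermatocyte-like and 11069 in spermatid-like cells. The limit therefore also changes which cell types of B0 are counted, and is not a control of depth alone. Among cells of at least 9013 UMIs, Prm3 was lower in BA10 than in B0, at 138 against 388 CPM, a log2 ratio of -1.48. Tnp1 was at 159 against 179 CPM, so its ratio changed sign to -0.17. Prm1, Prm2 and Tnp2 were still higher in BA10, with log2 ratios of 2.45, 2.92 and 1.95. As a mean over cells, in which each cell counts alike, the log2 ratio of Prm3 was 1.52, so that all 5 genes were past 2-fold. Without the macrophage-like cell of B0, which held 41.0% of its Prm1 UMIs, the log2 ratio was 4.06 for Prm1 in place of 3.33 and 4.43 for Prm2 in place of 3.804.

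In spermatid-like cells, the 199 cells of BA10 held 6624 CPM of Prm1 against 271 in B0, a log2 ratio of 4.60. Of the 199 cells, 165 were in cluster 26. The log2 ratio was 5.19 for Prm2, 4.08 for Tnp2, 1.85 for Tnp1 and 0.38 for Prm3. A small set of cells carried most of this. In BA10, 28 cells of 3778 had 100 or more Prm1 UMIs, a limit chosen after the values were seen, and they held 87.6% of the Prm1 UMIs of the library but 14.3% of its Prm3 UMIs. Of these, 22 were spermatid-like, 2 somatic-like and 4 unnamed. The 22 spermatid-like cells held 57029 CPM of Prm1, 50997 of Prm2, 3574 of Prm3, 17251 of Tnp1 and 26138 of Tnp2, levels that follow in part from their choice by Prm1. In the cell with most UMIs of the 5 genes, these were 24.6% of all UMIs, with 2689 UMIs of Prm1. In all, 24 cells of BA10 (0.635%, interval 0.407% to 0.944%) reached the median spermatid-like cell of A0.

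The other 177 spermatid-like cells of BA10 had under 100 Prm1 UMIs by this choice, which by itself keeps their Prm1 low. They held 298 CPM of Prm1, 232 of Prm2, 1866 of Prm3, 969 of Tnp1 and 361 of Tnp2. The 114 cells of B0 chosen in the same way held 116, 81.6, 1548, 709.8 and 119 CPM. Without the cells of 100 or more Prm1 UMIs, the log2 ratio of BA10 over B0 in spermatid-like cells was 1.36 for Prm1, 1.49 for Prm2, 1.59 for Tnp2, 0.45 for Tnp1 and 0.27 for Prm3. Prm3 led in most spermatid-like cells of B0 and BA10. It had at least 5 UMIs, and more than Prm1, Prm2 and Tnp2 together, in 104 of 115 spermatid-like cells of B0 (90.4%, interval 83.5% to 95.1%) and in 161 of 199 of BA10 (80.9%, 74.7% to 86.1%). No such cells were seen among the spermatid-like cells of A0 and A10, but this pattern could hardly be seen there. The somatic-like cells of A0 already held medians of 26 Prm1, 35 Prm2 and 14 Tnp2 UMIs, while the median spermatid-like cell of A0 held 23 Prm3 UMIs, so the libraries are not compared in it.

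**Figure D3:**
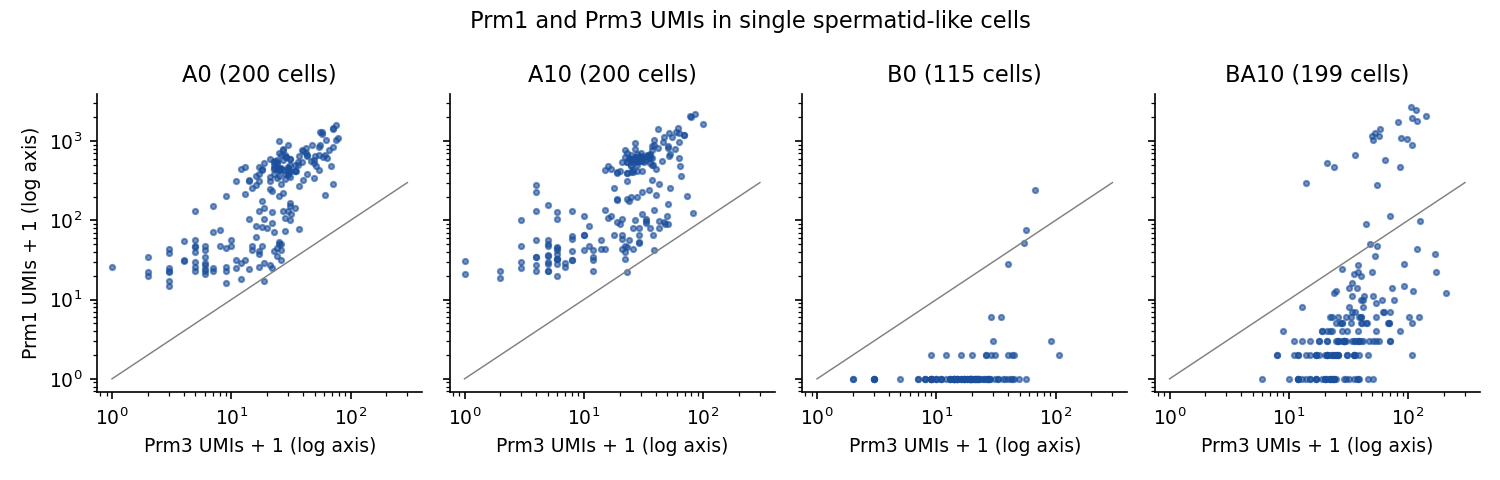
Prm1 against Prm3 UMIs (each plus 1, log axes) in single spermatid-like cells, all 115 of B0 and 199 of BA10 and a random 200 each of A0 and A10; the grey line marks equal numbers. Cells of A0 and A10 lie mostly above the line, those of B0 almost all below it, and BA10 has a group of its 22 high cells above the line and most others below. Somatic-like cells of A0 already held a median of 26 Prm1 UMIs, so A0 and A10 are not compared with B0 and BA10 by this line.

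**Figure D4:**
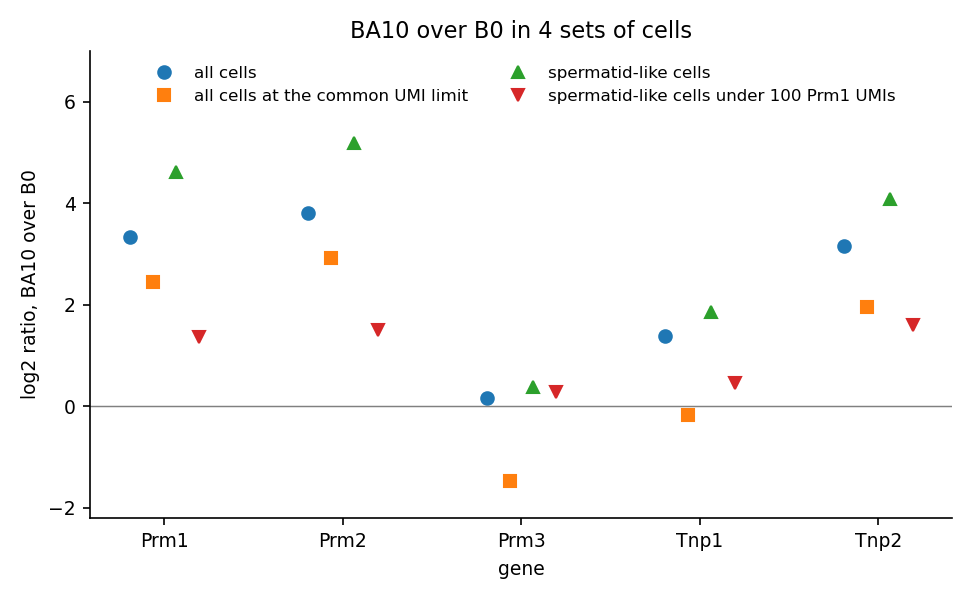
Log2 ratio of BA10 over B0 for each gene in 4 sets of cells: all cells, all cells of at least 9013 UMIs, spermatid-like cells, and spermatid-like cells with under 100 Prm1 UMIs. Prm1, Prm2 and Tnp2 are above 0 in every set, Tnp1 is at -0.17 and Prm3 at -1.48 in the cells of at least 9013 UMIs. In B0 that limit also changes the mix of cell types.

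The share of cells with a UMI was wide in BA10 but near that of somatic-like cells. Prm1 was found in 54.6% of BA10 cells, Prm2 in 50.9%, Prm3 in 44.3%, Tnp1 in 41.1% and Tnp2 in 41.9%. In B0 these shares were 2.49%, 2.85%, 8.69%, 5.26% and 2.51%. After every cell was thinned to 2985 UMIs, the lowest total of any cell, which left out 0 cells, they were 12.7%, 11.4%, 17.6%, 14.4% and 10.1% in BA10 and 1.48%, 1.46%, 5.82%, 3.63% and 1.20% in B0. Thinned to 5000 UMIs instead, which left 1424 cells of B0 and all 3778 of BA10, they were 20.4%, 18.2%, 22.7%, 18.7% and 14.98% in BA10 and 2.95%, 3.51%, 17.1%, 10.5% and 3.93% in B0, so the libraries lay closer for Prm3 and Tnp1. Thinned somatic-like cells of BA10 (177 cells, median 12500 UMIs before thinning) had a UMI of Prm1 in 14.1% and of Prm3 in 16.4%. Thinned spermatocyte-like cells (3168 cells, median 19255.5 UMIs) had one in 10.7% and 12.6%. Pooled detection of these genes in spermatocyte-like cells of BA10 was thus at or below that in somatic-like cells. Of the somatic-like cells, 2 had 100 or more Prm1 UMIs, and whether the UMIs in spermatocyte-like cells are background was not tested. Prm3 was not spread evenly over the spermatocyte-like cells. It had at least 5 UMIs, and more than Prm1, Prm2 and Tnp2 together, in 182 of the 3168 (5.74%, interval 4.96% to 6.61%), with up to 63 UMIs in a cell, and in 11 of the 177 somatic-like cells (6.21%, 3.14% to 10.8%). Prm3 was 28.8% of the UMIs of the 5 genes in spermatocyte-like cells, against 11.9% in somatic-like and 9.99% in spermatid-like cells. Few cells weigh on the somatic-like and spermatid-like shares. The highest somatic-like cell held 364 of 731 Prm1 UMIs. In the 177 spermatid-like cells under 100 Prm1 UMIs, Prm3 led with 6581 UMIs, against 3418 of Tnp1 and 1052 of Prm1. In cluster 15 (716 BA10 cells, led by Ssxb2 and Ssxb1) Prm3 was at 199 CPM, against 93.9 CPM in somatic-like cells. Ssxb2, Ssxb1, 1700001F09Rik and Gm5458 led both this cluster and cluster 3, which was named spermatid-like and held 790 cells of A0. Marker levels as a part of their highest cluster were close, 0.215 (spermatocyte) and 0.163 (spermatid) in cluster 15. In cluster 3 they were 0.23 and 0.259. Cluster 15 was picked after its values were seen, and whether its Prm3 UMIs are background was not tested. In B0, the 612 cells named spermatocyte-like were not of one kind, so they are given by cluster. Cluster 22 held 385 of them and was led by the globin genes Hbb-b1 and Hba-a1 and by Cst12 and Defb36, which also led the Sertoli-like cluster 29, with no spermatocyte marker among its 10 leading genes, which also included Speer4e, Gm21190 and Gm10354, the leading genes of spermatocyte-like cluster 1 in A0. It held 56.8 CPM of Prm3, 4.17 of Prm1, 5.48 of Prm2, 7.02 of Tnp1 and 2.19 of Tnp2. Cluster 30 held 177 and was led by Sycp1, a gene of the meiotic chromosome axis. It held 6.44 CPM of Prm3 and 8.58 of Prm1. After thinning, all 5 genes were seen together in 69.9% (A0), 76.1% (A10), 0.107% (B0) and 1.35% (BA10) of cells.

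In pooled sums, the make-up of the UMIs of the 5 genes set B0 apart. Prm3 was 2.41% of them in A0, 2.61% in A10, 47.5% in B0 (46.2% to 48.7%) and 12.0% in BA10 (11.8% to 12.2%). Prm2 was 37.8%, 33.6%, 8.36% and 27.4%, and Prm1 was 30.01%, 34.9%, 13.5% and 31.2%. Tnp1 was 11.5%, 12.2%, 23.3% and 13.8%, and Tnp2 was 18.3%, 16.8%, 7.44% and 15.5%. Prm3 thus had the largest share in B0 and the smallest in the other 3 libraries. In BA10 that place rests on the 28 cells of 100 or more Prm1 UMIs, which held 87.6% of the Prm1 but 14.3% of the Prm3 UMIs. In B0, Prm3 was 53.1% in spermatid-like and 21.4% in somatic-like cells. Most of that difference lay with the macrophage-like cell of 363 Prm1 UMIs. It held 819 of the 1391 UMIs of the 5 genes in somatic-like cells, and 11 of the 819 were of Prm3. Leydig-like cells of B0 alone (2934 cells) held 182 UMIs of Prm3, 83 of Tnp1, 50 of Prm1, 49 of Prm2 and 29 of Tnp2. Their Prm3 was at 14.4 CPM and their Prm1 at 3.95. In cluster 0, which held 2904 of them, Prm3 was at 6.96 CPM and Prm1 at 3.88. The other 30 were in cluster 33, so few cells raise the Prm3 of this class.

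**Figure D5:**
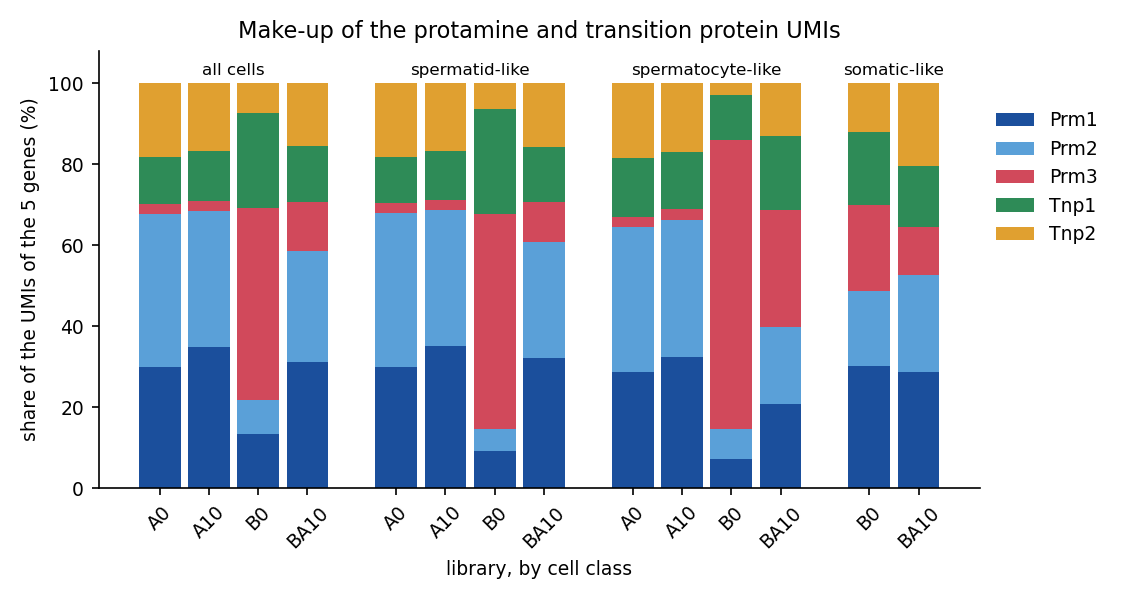
Share of each gene in the summed UMIs of the 5 genes (%), by library, in all cells and in spermatid-like, spermatocyte-like and somatic-like cells with at least 50 cells in the library. Prm3 takes 47.5% in B0 and 2.41% in A0, and the B0 bar for spermatocyte-like cells (Prm3 71.3%) rests mostly on cluster 22, 385 of 612 cells, whose leading genes are mixed.

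The lists of genes that act on these transcripts or proteins had median log2 ratios nearer to 0 than the 5 genes in B0 over A0, from -0.85 to -2.89 against -8.42. As above, 15.3% of all genes were at least 2-fold lower and 36.8% higher in B0 over A0, 11.6% higher and 34.7% lower in BA10 over B0, and 12.0% lower and 10.9% higher in BA10 over A0, and the counts below stand beside these shares. For transcription of the haploid programme (8 genes), 6 were at least 2-fold lower in B0 than in A0 and 0 higher, with a median log2 ratio of -1.38. Fhl5, a coactivator of CREM, was lowest (-4.13), and Taf7l, a testis form of a general transcription factor subunit, was highest (0.15). In BA10 over B0, 5 were at least 2-fold higher and 1 lower, with a median of 1.20, from Rfx2, a transcription factor of round spermatids (2.03), to Taf7l (-1.05). In BA10 over A0 the median was -0.12, and 2 genes were at least 2-fold lower, with Fhl5 at -3.39 and Rfx2 at 0.77. Among the 7 genes of storage and translation of spermatid mRNA, 5 were at least 2-fold lower in B0 than in A0, with Ddx25, an RNA helicase of spermatids, at -1.47. Celf1, an RNA-binding protein gene, was higher at 3.60. In BA10 over B0, 5 of the 7 were at least 2-fold higher, led by Ybx2, which binds stored mRNA (2.52), and 1 was lower, Celf1 (-2.40). In BA10 over A0, 2 were at least 2-fold higher and 0 lower, from Celf1 (1.19) to Eif4g3, a translation initiation factor gene (-0.70).

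Of 13 genes of histone exchange and removal, 5 were at least 2-fold lower in B0 than in A0 and 2 higher, with a median of -0.85. H1fnt, a linker histone of spermatids, was lowest (-5.70) and Rnf8, a ubiquitin ligase, was highest (2.06). In BA10 over B0, 3 were higher and 1 lower, from Kat5, a histone acetyltransferase (2.12), to Rnf8 (-1.17), and the median was 0.68. In BA10 over A0, 2 were higher and 4 lower, from Kat5 (1.27) to H1fnt (-4.64), and the median was 0.19. Of the 3 kinases, all were at least 2-fold lower in B0 than in A0, from Srpk1, which phosphorylates Prm1 (-1.27), to Tssk6, a spermatid kinase (-7.94). In BA10 over B0, 2 of 3 were higher, Tssk6 at 2.56, and Camk4, a kinase of Prm2, was at 0.35. Tssk6 was at only 0.987 CPM in B0, so the 1 CPM added makes its ratios with B0 smaller in size. In BA10 over A0, 2 of 3 were lower, with Srpk1 at -0.06 and Tssk6 at -5.38. In A10 over A0, 0 genes of the 4 lists were past 2-fold in either direction. The ends of the lists there were Tbpl1 (0.06) and Sox30 (-0.23), Ybx3 (0.10) and Eif4g3 (-0.18), Hist1h1t (0.24) and H1fnt (-0.24), and Srpk1 (-0.03) and Camk4 (-0.24). The medians lay between -0.09 and 0.02, against 0.31 for the 5 protamine and transition protein genes.

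The genes next to the cluster did not share its levels. On chromosome 16, Socs1, an inhibitor of cytokine signalling, lies beyond Tnp2 and was at 3.12, 2.83, 4.70 and 6.35 CPM in the order A0, A10, B0 and BA10. Clec16a, the next gene, was at 11.3, 10.1, 16.7 and 7.56 CPM. Rmi2, a DNA repair gene on the side of Prm1, was at 1.499, 1.36, 5.13 and 3.68 CPM, and Litaf was at 0.862, 0.772, 49.3 and 4.82 CPM. None of these 4 was lower in B0 than in A0. On chromosome 1, the nearest genes of the table to Tnp1 were Igfbp5 (0 UMIs in A0, A10 and BA10 and 6 in B0), Igfbp2 (0.610, 0.605, 113 and 5.26 CPM), Tns1 (48.6, 38.9, 99.0 and 12.5 CPM) and Rufy4 (at most 4 UMIs in any library). Tns1 was 1.01 higher in B0 than in A0 on the log2 scale, against -6.26 for Tnp1. GENCODE M21 also annotates antisense genes that overlap Prm1 and Tnp1; they were not analysed here, and whether the counting used strand is not given in the sources used here.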

How the data were processed

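Testis cells of 4 groups (1 library each) were measured with 10x Genomics 3′ chemistry. Per the submitters' processing notes, reads were processed with Cell Ranger 2.2.0 on mm10. The authors then filtered cells and genes and normalized in Seurat. The deposited values are on a natural log scale, ln(1 + 10000 s), where s is the fraction of a cell's UMIs that one gene holds. UMIs were recovered from them, and 100% of values above 0 were whole within a relative tolerance of 0.001. The table lists 18419 genes, 27060 cells and 0 mitochondrial genes. The paper names a forced number of cells for Cell Ranger, whereas the 4 libraries hold different numbers of cells. How cells were called is therefore not settled by the sources used here.

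For each library or class, UMIs were added up per gene and divided by the total, per 1000000 (CPM). Log2 ratios and folds have 1 CPM added, and the intervals of ratios do not. Counts past 2-fold are out of all genes with a UMI in either library. No test was made on single libraries. Sums have exact Poisson intervals, shares exact binomial (Clopper-Pearson) ones, and ratios an interval from the binomial of the 2 sums, all at 95%. The calculation was tested on simulated counts.

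Clusters were made without the 5 genes from 2000 variable genes, 30 principal components and 15 neighbours with the Leiden algorithm at resolution 1 (leidenalg 0.10.2), which gave 36 clusters. Each was named for the class whose markers stood nearest to their highest cluster. It stayed unnamed when other classes had more markers among its 10 leading genes than the class itself, when under 3 markers were seen in 10% of its cells, when its UMIs were low with no own marker leading, or when connective tissue genes led it; the naming rule was set after clusters of these data had been seen. Classes were compared where both libraries held at least 50 cells. Doublets were kept. Scrublet (scanpy 1.11.5, expected rate 6%) called 721 cells in A0, 838 in A10, 4 in B0, so few that it may not have worked there, and 48 in BA10. Diffusion pseudotime used 30 neighbours and 14 components.

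The 5 genes and all lists were chosen with earlier results of these data known. Beside the 5 genes, those named are the ends of each list and comparison, the nearest listed genes of each locus, the 3 genes most like each member, and 4 Leydig markers of which Insl3 is printed; leading genes of clusters, markers and genes of single cells were named after their values were seen. Of the table's symbols, 17546 matched GENCODE M21. Alternatives were another pseudocount, a common UMI limit, other scalings, clusterings and orders, a deeper thinning, and cells left out.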

Additional observations from a re-analysis of the deposited data

Results flagged for a closer look

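The change with AOS in the make-up of the UMIs of the 5 genes went in opposite directions in mice without busulfan (A10 minus A0) and after busulfan (BA10 minus B0) for 4 of the 5 genes. With 1 library per group the difference between the changes was not tested. The shares of a library add up to a whole, so a change in one moves the others. The 4 opposite changes are therefore not separate results. The share of Prm3 was 0.194 percentage points higher in A10 than in A0 and changed by -35.5 points from B0 to BA10, a difference of -35.6 points between the changes. Its own pooled level was 138 CPM in BA10 and 123 in B0 (log2 ratio 0.17), but the ratio was -1.48 among cells of at least 9013 UMIs, where that of Tnp1 was -0.17, and 1.52 as a mean over cells. The share of Tnp1 changed by 0.734 and -9.47 points, a difference of -10.2 points. The share of Prm2 changed by -4.23 and 19.1 points, a difference of 23.3 points. The share of Tnp2 changed by -1.55 and 8.10 points, a difference of 9.65 points. Prm1 had a higher share with AOS in both. In BA10, 28 cells held 87.6% of the Prm1 UMIs, and in B0 1 macrophage-like cell held 41.0% of them, so these shares rest on few cells.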

How the results depend on the processing

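The 4 pooled and 4 spermatid-like medians of the log2 ratio of the 5 genes kept their sign under every alternative that gave a value. With 10 CPM added, the pooled median was -8.00 (B0 over A0), 2.69 (BA10 over B0) and -5.06 (BA10 over A0). Among cells of at least 9013 UMIs it was 0.26 (A10 over A0), -7.22 (B0 over A0), 1.95 (BA10 over B0) and -4.98 (BA10 over A0). With the 5 genes left out of the totals it was 0.32 for A10 over A0 and -5.15 for BA10 over A0. As a mean over cells it was 0.36, -9.16, 4.06 and -5.02 in the same order. Centred on the median gene it was 0.34, -8.92, 3.53 and -5.43. Without called doublets it was -5.04 for BA10 over A0. Alternatives chosen after seeing the data gave -8.95 for B0 over A0 and 3.57 for BA10 over B0 without the B0 cell with most Prm1 UMIs, and 0.30 for A10 over A0 and -5.05 for BA10 over A0 without barcodes found in more than 1 library.

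In spermatid-like cells the median for A10 over A0 was 0.29 among cells of at least 9013 UMIs, 0.41 with 1000 variable genes, 0.35 at resolution 0.5 and 0.39 at resolution 2. For B0 over A0 it was -5.75 among cells of at least 9013 UMIs and -6.14 at resolution 0.5. For BA10 over A0, whose cells lie mostly in different clusters (165 of the 199 of BA10 in cluster 26, with 5 of A0), it was -1.55, and -1.43 among cells of at least 9013 UMIs, -1.72 with 1000 variable genes, -1.73 at resolution 0.5, -1.71 at resolution 2 and -1.59 without called doublets. Without cells of 100 or more Prm1 UMIs in B0 and BA10, an alternative chosen after seeing the data, it was -6.62, 1.36 and -5.03 in B0 over A0, BA10 over B0 and BA10 over A0. A0 kept its cells of 100 or more Prm1 UMIs, so both ratios with A0 are lowered by the choice itself. With 1000 variable genes B0 held under 50 spermatid-like cells, so no ratio with B0 was computed there.

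Of the called single-gene ratios, 3 changed sign: Tnp1 in BA10 over B0 (-0.17) among cells of at least 9013 UMIs, and, with 1000 variable genes, spermatocyte-like Prm3 in B0 over A0 (0.87) and Tnp1 in BA10 over B0 (-1.79). Ratios under 2-fold that changed sign were, among cells of at least 9013 UMIs, Prm2 in A10 over A0 (-0.02) and Prm3 in BA10 over B0 (-1.48), spermatid-like Prm3 in B0 over A0 at both other resolutions (-0.14 and -0.08) and without called doublets (-0.01), and spermatocyte-like Prm3 in BA10 over B0 (-2.46 with 1000 variable genes, -0.02 at resolution 2, -0.03 without called doublets). The causes were not tested. Counting only genes seen in 5% of cells of either library, 23.3% were at least 2-fold lower in B0 than in A0, 17.8% higher in BA10 than in B0, and 18.2% lower and 16.7% higher in BA10 than in A0. In B0 the 5 genes rest on 6576 UMIs, against 105251 in BA10 and 6186464 in A0.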
